A study of Mus musculus with 4 samples.

Results

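A group of 10 genes that mark fetal liver or liver tumours was followed cell by cell in mouse liver tumour tissue: Afp, Gpc3, H19, Igf2, Dlk1, Tff3, Scd2, Ly6d, Golm1 and Akr1c18. They were taken by name, as 10 of the 17813 genes in the deposited table, and each had at least 1 UMI (a unique molecular identifier, which counts 1 captured RNA molecule). Of the 24802 cells, 801 were Krt8/Sox9 epithelial and 1206 were hepatocyte-like by marker genes. The study took 2 samples from Miz1_delta_hep mice and 2 from Miz1F/F mice, all C57BL/6 and 5 months old. All had received diethylnitrosamine at 25 mg/kg in week 2 of life and carbon tetrachloride at 0.5 ml/kg each week afterwards. The Miz1F/F mice carry floxed Miz1 alleles, and the sources used here do not name the Cre driver behind the deletion in Miz1_delta_hep mice. The table pools all cells under 4 barcode suffixes, called barcode sets 1 to 4 below. No source used here ties a suffix to a sample, so genotypes were not compared and no p-value was computed. The sets are given as separate values and are not replicates of a group.

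Alpha-fetoprotein (Afp) and glypican 3 (Gpc3, a cell surface proteoglycan) are made by the fetal liver, are shut off after birth and return in many hepatocellular carcinomas. H19, Igf2 and Dlk1 are imprinted genes that are also high in fetal liver: H19 is a long noncoding RNA, Igf2 a growth factor and Dlk1 a membrane protein of hepatoblasts. Tff3 encodes a secreted trefoil peptide, Scd2 a stearoyl-CoA desaturase, Golm1 a Golgi membrane protein used as a serum marker of liver disease, Akr1c18 a hydroxysteroid dehydrogenase, and Ly6d a surface protein anchored by a lipid that also marks B lineage cells.

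On GRCm38, Afp spans chr5:90490737-90508907 on the plus strand and Gpc3 spans chrX:52272426-52613950 on the minus strand. H19 at chr7:142575529-142578143 and Igf2 at chr7:142650766-142666816 are both on the minus strand, and Dlk1 lies at chr12:109452823-109463336. Tff3 lies at chr17:31125306-31129646, Ly6d at chr15:74762056-74763620 and Golm1 at chr13:59634626-59675811. Akr1c18 at chr13:4132615-4150654, Scd2 at chr19:44293674-44306864 and Ly6d belong to families of similar genes. Reads shared with a near-identical copy may have been miscounted, and how they were handled is not stated. On the other strand, Golm1 overlaps Naa35, Afp overlaps Gm43449 and Gpc3 overlaps Gm14582 and A630012P03Rik. H19 likewise overlaps Gm27483 and Gm27786, and Igf2 overlaps Igf2os. The strand setting of the counting is not stated.

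Promoters of 4 genes are shown beside their different behaviour between the hepatocyte clusters described below. Akr1c18 was lower and Gpc3 higher in the Alb-led cluster in every set compared. Afp differed by set. Golm1 was higher in the Alb-led cluster in sets 2 and 4, and no order is read in set 1, where each cluster had 1 UMI. These 4 were picked with those values known. Each run is the 250 bases before the RefSeq start on GRCm38.p6, 5′ to 3′ on the gene's strand: chr5:90490464-90490713 (plus) for Afp, chr13:4150647-4150896 (minus) for Akr1c18, chrX:52613975-52614224 (minus) for Gpc3 and chr13:59675785-59676034 (minus) for Golm1. Capitals mark matches on either strand to the motifs searched.
Afp: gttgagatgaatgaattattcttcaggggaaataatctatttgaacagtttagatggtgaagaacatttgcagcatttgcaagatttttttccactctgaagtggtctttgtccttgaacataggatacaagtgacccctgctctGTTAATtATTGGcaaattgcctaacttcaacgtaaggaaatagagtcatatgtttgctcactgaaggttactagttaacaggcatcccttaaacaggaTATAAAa
Akr1c18: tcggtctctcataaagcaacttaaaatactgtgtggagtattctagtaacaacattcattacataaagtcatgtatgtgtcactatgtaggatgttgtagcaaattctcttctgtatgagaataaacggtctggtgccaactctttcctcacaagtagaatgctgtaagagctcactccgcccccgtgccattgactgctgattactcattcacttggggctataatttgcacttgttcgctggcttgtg
Gpc3: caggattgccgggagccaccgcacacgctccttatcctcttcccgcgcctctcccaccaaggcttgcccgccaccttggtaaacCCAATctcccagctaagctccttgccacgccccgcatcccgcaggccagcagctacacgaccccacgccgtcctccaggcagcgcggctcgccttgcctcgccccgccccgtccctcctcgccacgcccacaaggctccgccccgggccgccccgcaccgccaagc
Golm1: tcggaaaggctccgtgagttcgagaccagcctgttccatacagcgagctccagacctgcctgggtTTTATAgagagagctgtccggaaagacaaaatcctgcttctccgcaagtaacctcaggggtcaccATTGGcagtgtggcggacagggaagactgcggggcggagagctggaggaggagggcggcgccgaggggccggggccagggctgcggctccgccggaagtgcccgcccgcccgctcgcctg
The TATA box was searched as TATAAA and was in 12.3% of 32544 promoter windows of this length. The CCAAT box, searched as CCAAT, was in 33.8%. The core of the HNF1 site (a liver factor), searched as GTTAAT, was in 6.47%. The forkhead site, searched as TGTTTAC, was in 3.17%, and the E-box, searched as CACGTG, was in 6.03%. The Afp window held the HNF1 core 105 bases before the RefSeq start, a CCAAT box on the other strand at 98 bases and a TATA box at 7 bases. All distances are from RefSeq starts, which differ from the GENCODE ends of the spans given above. The GENCODE start of Afp, 90490737, lies downstream of its RefSeq start, so distances from it are longer. The windows of Akr1c18 and Golm1 reach into their GENCODE spans. The Gpc3 window held a CCAAT box at 166 bases, and the Golm1 window held a TATA box at 185 bases and a CCAAT box at 120 bases, both on the other strand. No searched motif was in the Akr1c18 window. G and C made up 36.0% of the Afp window, 41.6% of that of Akr1c18, 71.6% of that of Gpc3 and 65.6% of that of Golm1, against a median of 52.4% over all windows.

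The sets held 2574, 6224, 4825 and 11179 cells with 9093921 to 35033778 UMIs each, and 373 barcodes occurred in 2 or more sets, among them those of 102 Krt8/Sox9 epithelial and 47 hepatocyte-like cells. The median depth was 6325 UMIs in Krt8/Sox9 epithelial cells and 1512 UMIs in hepatocyte-like cells. Krt8/Sox9 epithelial cells had Krt8 at 2751 CPM (UMIs per 1000000 UMIs of a cell, averaged over cells), Sox9 at 474.4 CPM and Alb at 8118 CPM, against 492.2, 27.1 and 44408 CPM in hepatocyte-like cells. The bile duct markers Krt19 and Epcam were at 1.37 and 6.43 CPM in Krt8/Sox9 epithelial cells, against 470.6 and 890.6 CPM in cholangiocyte-like cells. Hepatocyte RNA in other classes was gauged through 5 secreted hepatocyte products, which does not tell free RNA from doublets. In T cell-like cells their median was 0.600%, 6.28%, 0.931% and 4.68% of the hepatocyte level in sets 1 to 4. Other classes had more: neutrophil-like cells had 1.33%, 10.5%, 1.32% and 8.64%, and Kupffer cell-like cells had 2.66%, 7.84%, 2.24% and 7.74%.

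Across classes, Afp, Tff3 and Akr1c18 were highest in hepatocyte-like cells. By the median over sets, Ly6d was highest in Krt8/Sox9 epithelial cells, although in set 3 it was 1217 CPM there and 1355 CPM in plasmacytoid dendritic cell-like cells. By the same median, Gpc3, Scd2 and Golm1 were highest in the stellate, fibroblast and mesothelial class, which had 20 cells or more in set 3 only. In that set Scd2 was higher in hepatocyte-like cells. H19, Igf2 and Dlk1 were near 0 in hepatocyte-like and Krt8/Sox9 epithelial cells. Levels are means over cells and are compared between classes, not between genes.

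Afp averaged 284.9, 867.8, 395.8 and 698.1 CPM in hepatocyte-like cells of sets 1 to 4. Set 2 was the highest and set 1 the lowest. Outside hepatocyte-like and Krt8/Sox9 epithelial cells no class had a median over sets above 45.3 CPM. T cell-like cells had 1.19%, 7.16%, 0.401% and 2.32% of the hepatocyte level of Afp, highest in set 2, as for the 5 secreted products.

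Tff3 averaged 2305, 1570, 1098 and 690.4 CPM in hepatocyte-like cells of sets 1 to 4, with set 1 the highest and set 4 the lowest. The next class, erythroid-like cells, had a median of 63.9 CPM, and 80.5% of all 8240 Tff3 UMIs were in hepatocyte-like cells. Akr1c18 averaged 567.3, 408.2, 415.0 and 563.9 CPM in hepatocyte-like cells. Outside hepatocyte-like and Krt8/Sox9 epithelial cells its highest median was 33.0 CPM, in endothelial-like cells.

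Gpc3 averaged 131.2, 342.0, 114.6 and 157.5 CPM in hepatocyte-like cells of sets 1 to 4, with set 2 above the others. The stellate, fibroblast and mesothelial class had 425.4 CPM in set 3, from 47 cells and 60 UMIs, above the 114.6 CPM of hepatocyte-like cells of that set. Scd2 averaged 62.3, 156.5, 351.4 and 222.8 CPM in hepatocyte-like cells. That range overlaps the 318.6 CPM of the stellate, fibroblast and mesothelial class, the 342.8 and 192.8 CPM of cholangiocyte-like cells in sets 3 and 4 and the 96.7 to 164.7 CPM of Kupffer cell-like cells. Golm1 averaged 1.17, 28.0, 3.72 and 15.6 CPM in hepatocyte-like cells, from 2 UMIs each in sets 1 and 3. In T cell-like cells Golm1 averaged 13.9 to 29.5 CPM. Its highest value was 115.8 CPM in the stellate, fibroblast and mesothelial class, from 17 UMIs.

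Ly6d averaged 2595, 1217 and 8471 CPM in Krt8/Sox9 epithelial cells of sets 2 to 4, with set 4 far above the others. Plasmacytoid dendritic cell-like cells had 1323 to 2994 CPM and B cell-like cells 766.7 to 1946 CPM over the 4 sets, so both overlapped the Krt8/Sox9 epithelial range. Cholangiocyte-like cells had 158.6 and 232.5 CPM in sets 3 and 4, below the Krt8/Sox9 epithelial cells of those sets.

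**Figure D1:**
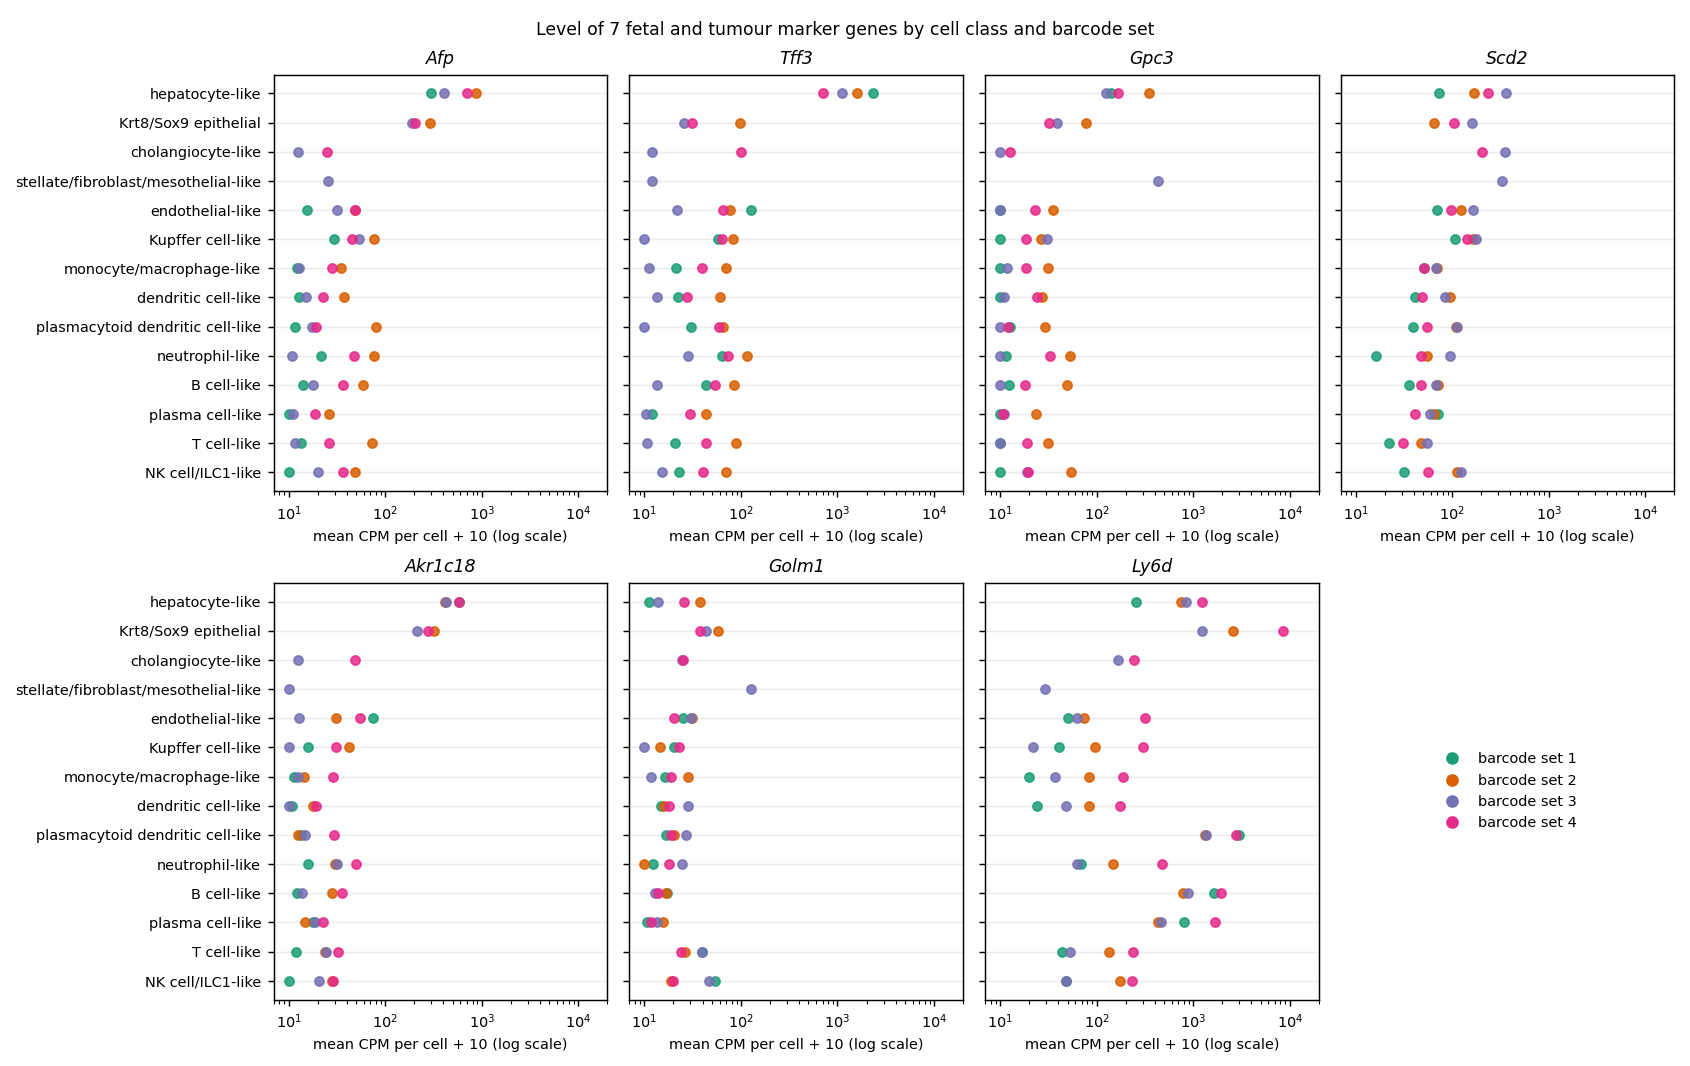
Level of 7 of the 10 genes in 14 cell classes. The horizontal log axis is the mean CPM over the cells of a class plus 10 CPM, and each point is 1 barcode set with at least 20 cells of the class. In each set, Afp, Tff3 and Akr1c18 are highest in hepatocyte-like cells, while Ly6d is high in Krt8/Sox9 epithelial, plasmacytoid dendritic and B cell-like cells.

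H19 had 44 UMIs in the whole table, with 0 in Krt8/Sox9 epithelial cells, 2 in hepatocyte-like cells and 36 in 12 endothelial-like cells. Igf2 had 9 UMIs, with 2 in 1 Krt8/Sox9 epithelial cell, 0 in hepatocyte-like cells and 7 in 6 endothelial-like cells. Dlk1 had 10 UMIs, with 1 in Krt8/Sox9 epithelial cells and 2 in hepatocyte-like cells. A count of 0 allows up to 3 UMIs, or 0.474 CPM over all Krt8/Sox9 epithelial cells and 0.605 CPM over all hepatocyte-like cells. Lower levels of these imprinted genes were not detectable at this depth.

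Krt8/Sox9 epithelial cells were set against hepatocyte-like cells within sets 2, 3 and 4, which hold at least 20 cells of both. Of the 10 genes, 4 were at least 2-fold lower in Krt8/Sox9 epithelial cells in every set: Tff3, Gpc3, Afp and Scd2. None was at least 2-fold higher in every set, although Ly6d was under several alternatives given with its values, most of which leave out set 3. A filter of 20 CPM in 1 of the classes was passed by 7 of the 10, and H19, Igf2 and Dlk1 did not pass. Of all 6097 genes that passed, the share at least 2-fold lower in all 3 sets was 3.89%, and the share at least 2-fold higher was 7.87%. Lower in every set by any amount were 5 of the 7 that passed, against 17.3% of all genes tested, and higher were 2 of the 7, against 47.2%. The median log2 ratio was 0.38 over all genes tested, and ratios below are not shifted by it.

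Tff3 was 87.4, 15.6 and 20.8 CPM in Krt8/Sox9 epithelial cells of sets 2 to 4, against 1570, 1098 and 690.4 CPM in hepatocyte-like cells. The values of the classes do not overlap, and the median log2 ratio was -4.51 (sets from -5.43 to -4.02). Gpc3 was 68.4, 28.9 and 21.8 CPM in Krt8/Sox9 epithelial cells, against 342.0, 114.6 and 157.5 CPM in hepatocyte-like cells. Its median ratio was -2.17 (sets from -2.40 to -1.68), again with no overlap. Against the Fabp1-led hepatocyte cluster alone (described below), which had 124.1, 15.2 and 25.9 CPM in these sets, the values overlap, the ratio was -0.18 and the call was lost. Against the Alb-led cluster alone it was -2.91.

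Afp was 282.1, 179.4 and 193.7 CPM in Krt8/Sox9 epithelial cells of sets 2 to 4, against 867.8, 395.8 and 698.1 CPM in hepatocyte-like cells, a median ratio of -1.59 (sets from -1.80 to -1.10). The Afp call was lost with UMI sums (-1.37) and against the Alb-led cluster alone (-1.01). Scd2 was 54.2, 150.4 and 95.4 CPM in Krt8/Sox9 epithelial cells, against 156.5, 351.4 and 222.8 CPM in hepatocyte-like cells, a median ratio of -1.17 (sets from -1.37 to -1.14). Against the Fabp1-led cluster alone, at 27.1, 264.8 and 73.0 CPM, Scd2 was higher in Krt8/Sox9 epithelial cells in sets 2 and 4 and lower in set 3. The median Scd2 ratio was then 0.34. The set 3 value of the Fabp1-led cluster rests on 7 UMIs in 3 of 35 cells. With cells thinned to 1000 UMIs (-1.01) the Scd2 call was lost. Akr1c18 was 306.8, 203.2 and 267.8 CPM in Krt8/Sox9 epithelial cells, against 408.2, 415.0 and 563.9 CPM in hepatocyte-like cells. It was lower in every set, with a median ratio of -0.995 (sets from -1.05 to -0.40), and not at least 2-fold in each.

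Ly6d was 2595, 1217 and 8471 CPM in Krt8/Sox9 epithelial cells, against 737.9, 827.7 and 1227 CPM in hepatocyte-like cells of the same sets. It was higher in all 3 sets, with a median ratio of 1.8002 (from 0.55 in set 3 to 2.78 in set 4), and at least 2-fold in sets 2 and 4. It was at least 2-fold higher in every set used without set 3 (2.29), with UMI sums (1.58), with 500 genes per cell (2.24), with barcodes found in 1 set (1.84), with thinned cells (2.18) and against the Alb-led cluster alone (1.92). In cells without a UMI of 6 B cell and plasmacytoid dendritic cell markers it was 1.82. Golm1 was 47.3, 33.3 and 27.6 CPM in Krt8/Sox9 epithelial cells, against 28.0, 3.72 and 15.6 CPM in hepatocyte-like cells, a median ratio of 0.59 (sets from 0.56 to 1.66). The 1.66 is from set 3, where hepatocyte-like cells had 2 Golm1 UMIs.

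**Figure D2:**
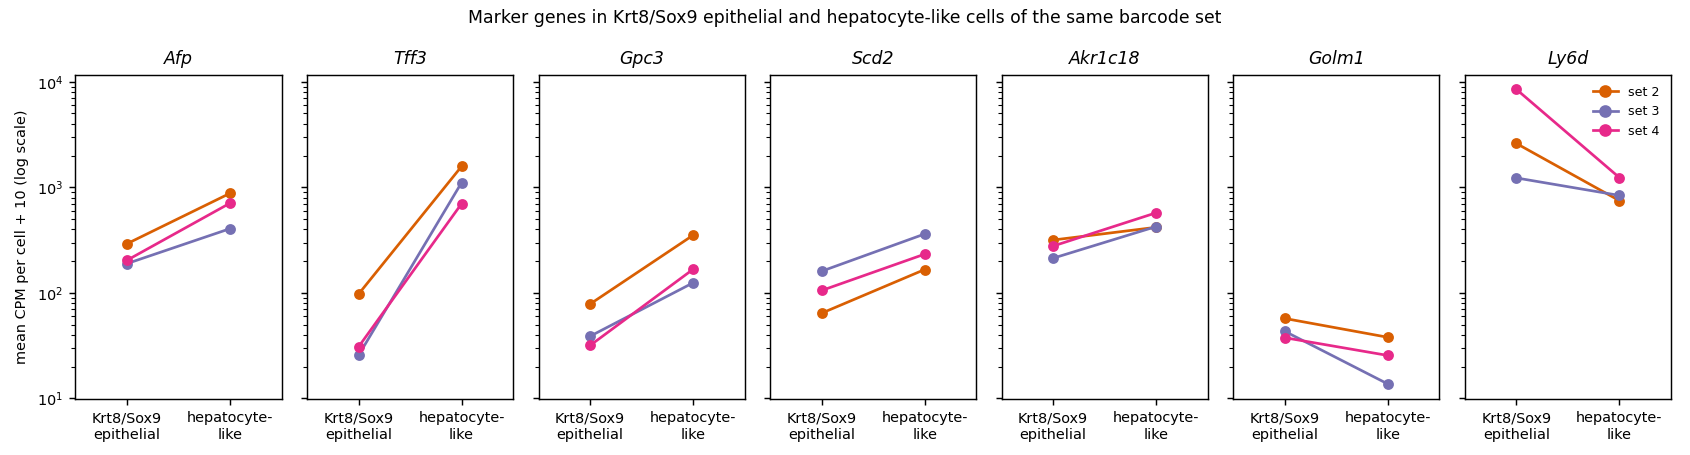
The 7 genes in Krt8/Sox9 epithelial cells (left) and hepatocyte-like cells (right), as mean CPM over cells plus 10 CPM on a log axis, with a line for each of barcode sets 2, 3 and 4. Afp, Tff3, Gpc3, Scd2 and Akr1c18 are lower in Krt8/Sox9 epithelial cells in all 3 sets, and Golm1 and Ly6d are higher there in all 3.

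The hepatocyte-like class was made of 2 clusters, called here by a leading gene: an Alb-led cluster of 659 cells with Alb at 69037 CPM and a Fabp1-led cluster of 547 cells with Alb at 14737 CPM. Gpc3 and Scd2 were at least 2-fold higher in the Alb-led cluster in each of sets 1, 2 and 4, and none of the 10 genes was at least 2-fold lower in each. Of 5103 genes tested, 8.47% were at least 2-fold higher in every set and 4.29% at least 2-fold lower. Of the 10 genes, 7 passed the filter. Higher in every set by any amount were 2 of the 7, against 32.4% of all genes tested, and lower were 2 of the 7, against 31.6%. Both counts are near those shares. The comparison was added after the clusters had been seen, and the 10 genes took no part in forming them.

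Gpc3 was 231.0, 489.6 and 272.4 CPM in the Alb-led cluster of sets 1, 2 and 4, against 8.97, 124.1 and 25.9 CPM in the Fabp1-led cluster, a median log2 ratio of 2.98 (sets from 1.90 to 3.67). Scd2 was 110.5, 244.1 and 353.7 CPM in the Alb-led cluster, against 3.32, 27.1 and 73.0 CPM in the Fabp1-led cluster, a median ratio of 2.78 (sets from 2.13 to 3.18). For both genes the clusters do not overlap over these sets.

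Akr1c18 was 299.6, 321.9 and 309.6 CPM in the Alb-led cluster, against 895.0, 535.6 and 854.9 CPM in the Fabp1-led cluster, a median ratio of -1.44 (sets from -1.55 to -0.72). Tff3 was 2001, 1377 and 628.7 CPM in the Alb-led cluster, against 2677, 1854 and 761.0 CPM in the Fabp1-led cluster, a median ratio of -0.42 (sets from -0.43 to -0.27). Akr1c18 values do not overlap between the clusters, while those of Tff3 do.

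Afp was 128.6, 971.2 and 237.6 CPM in the Alb-led cluster of sets 1, 2 and 4, against 476.3, 715.1 and 1225 CPM in the Fabp1-led cluster. It was lower in the Alb-led cluster in sets 1 and 4 and higher in set 2, so the ratios ran from -2.32 to 0.44. Golm1 (median 1.45, sets from -0.21 to 1.95) and Ly6d (median 0.85, sets from -0.04 to 1.21) were higher in the Alb-led cluster in sets 2 and 4 and not in set 1. Golm1 had 1 UMI in each cluster of set 1, so no order is read there. It had 1 UMI in the Fabp1-led cluster of set 4.

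Depth and markers of other cells differed between the clusters as well. The median depth was 938, 4413.5 and 2192 UMIs in the Alb-led cluster of sets 1, 2 and 4, against 1160, 1097 and 1269.5 UMIs in the Fabp1-led cluster. The 6 erythroid markers summed to 34087, 2701 and 3863 CPM in the Alb-led cluster, against 3414, 722.9 and 2092 CPM in the Fabp1-led cluster, and cholangiocyte markers to 624.6, 1670 and 677.3 CPM in the Alb-led cluster, against 148.2, 380.2 and 140.7 CPM in the Fabp1-led cluster. Over all cells of the Alb-led cluster, the cholangiocyte sum was mostly Tspan8 (510.1 CPM) and Tm4sf4 (461.3 CPM). The duct markers Krt19 and Epcam were at 0.0 and 0.60 CPM there, so the sum does not show duct cells. Endothelial markers summed to 167.0, 214.2 and 380.1 CPM in the Alb-led cluster, against 11.85, 80.4 and 225.4 CPM in the Fabp1-led cluster, and B cell markers to 277.2, 375.8 and 595.2 CPM in the Alb-led cluster, against 35.3, 110.2 and 252.7 CPM in the Fabp1-led cluster. Not all such sums were higher in the Alb-led cluster. Kupffer cell markers summed to 1457, 101.5 and 292.2 CPM there, against 197.2, 121.6 and 500.3 CPM in the Fabp1-led cluster. Neutrophil markers summed to 4355, 165.3 and 217.3 CPM, against 610.3, 107.25 and 822.4 CPM. Cycling markers were lower in the Alb-led cluster in each of these sets, at 0.53, 66.7 and 52.1 CPM, against 1.2, 139.0 and 139.4 CPM. The part of these markers in the result was not tested. With cells thinned to 1000 UMIs the median ratio was 2.80 for Gpc3 and 2.53 for Scd2.

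**Figure D3:**
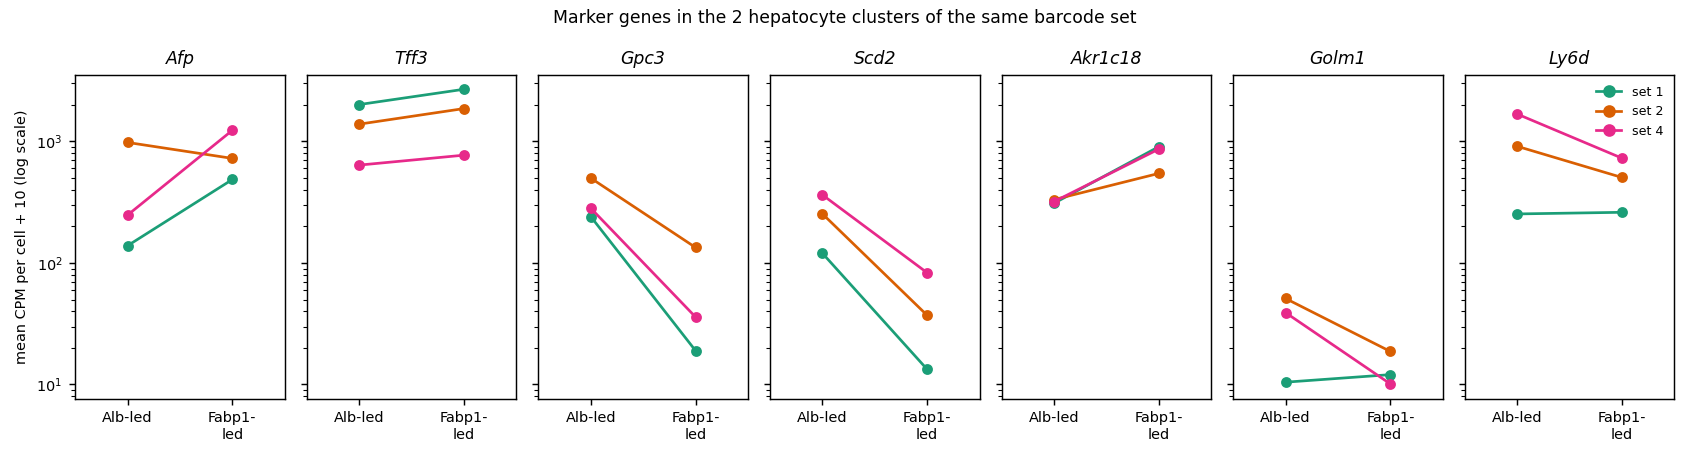
The 7 genes in the Alb-led (left) and Fabp1-led (right) hepatocyte clusters, as mean CPM over cells plus 10 CPM on a log axis, with a line for each of barcode sets 1, 2 and 4. Gpc3 and Scd2 are higher in the Alb-led cluster in all 3 sets, Akr1c18 and Tff3 are lower there in all 3, and Afp is lower in sets 1 and 4 and higher in set 2.

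For single cells, each cell was thinned to 1000 UMIs and shallower cells were left out, which kept 724 of 801 Krt8/Sox9 epithelial cells and 785 of 1206 hepatocyte-like cells. At least 1 of the 10 genes was seen in 82.6% of Krt8/Sox9 epithelial cells (exact Clopper-Pearson interval 79.6% to 85.3%) and in 91.3% of hepatocyte-like cells (89.1% to 93.2%). Such intervals cover counting error only. None of the 10 genes was seen in 17.4% of Krt8/Sox9 epithelial and 8.66% of hepatocyte-like cells. The same held for 21.0% of B cell-like, 26.7% of plasmacytoid dendritic cell-like and 80.4% of T cell-like cells. The Krt8/Sox9 epithelial share is thus close to that of B cell-like cells, another class with high Ly6d.

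In Krt8/Sox9 epithelial cells Ly6d was seen in 66.4%, Akr1c18 in 24.0%, Afp in 17.4%, Scd2 in 9.39%, Gpc3 in 3.73%, Golm1 in 3.31% and Tff3 in 2.49%. In hepatocyte-like cells Tff3 was seen in 45.0%, Ly6d in 44.7%, Afp in 37.5%, Akr1c18 in 35.7%, Gpc3 in 16.3%, Scd2 in 14.3% and Golm1 in 2.80%. In T cell-like cells, which should lack hepatocyte genes and had a median of 1171 UMIs before thinning, the shares were 2.27% for Tff3, 11.5% for Ly6d, 1.13% for Afp, 1.21% for Akr1c18, 0.755% for Gpc3, 2.42% for Scd2 and 1.96% for Golm1. Without thinning, the hepatocyte-like shares were 56.6% for Tff3, 53.6% for Ly6d, 50.6% for Afp, 55.1% for Akr1c18, 27.1% for Gpc3, 27.6% for Scd2 and 9.37% for Golm1. The Krt8/Sox9 epithelial shares were then 13.5% for Tff3, 81.8% for Ly6d, 62.3% for Afp, 13.7% for Gpc3, 37.7% for Scd2 and 22.5% for Golm1. Afp and Scd2 were thus seen in a larger share of Krt8/Sox9 epithelial cells without thinning. Those cells were deeper, with a median of 6325 UMIs against 1512 UMIs in hepatocyte-like cells.

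By set, Tff3 was seen in 6.06%, 0.388% and 1.39% of Krt8/Sox9 epithelial cells of sets 2 to 4, against 4.96%, 0% (0 of 187) and 2.65% of T cell-like cells. These shares rest on 14, 1 and 3 Krt8/Sox9 epithelial cells and on 11, 0 and 15 T cell-like cells, and no order is read from them. Afp was seen in 19.9%, 15.1% and 17.1% of Krt8/Sox9 epithelial cells, against 3.60%, 0.535% and 0.708% of T cell-like cells of sets 2 to 4, and was higher in all 3. Golm1 in hepatocyte-like cells (0%, 5.39% and 2.22% in sets 1, 2 and 4) lay on both sides of its T cell-like share (1.14%, 3.15% and 1.24%).

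The spread over cells differed between genes. Among thinned Krt8/Sox9 epithelial cells, Ly6d had 5 UMIs or more in 211 cells and none in 243. Its variance was 3.24, 3.56 and 6.89 times its mean within sets 2, 3 and 4. By set, 77 of 231 cells of set 2, 140 of 258 of set 3 and 20 of 216 of set 4 had no Ly6d UMI. Among thinned hepatocyte-like cells, Ly6d had 5 UMIs or more in 34 cells, Tff3 in 54 and Afp in 16. Within sets 1, 2 and 4 the variance was 1.66, 2.05 and 3.94 times the mean for Ly6d, 2.06, 3.35 and 2.59 times for Tff3 and 1.81, 2.41 and 2.02 times for Afp. For Scd2 it was 1.28, 1.32 and 1.15 times, and no cell had 5 UMIs of Scd2 or of Akr1c18.

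At least 3 of the 10 genes were seen in 7.73% of Krt8/Sox9 epithelial cells and in 30.1% of hepatocyte-like cells, and no cell of these classes had more than 5. By set the share was 9.96%, 3.49% and 9.72% in Krt8/Sox9 epithelial cells of sets 2 to 4. It was 17.2%, 36.1% and 30.8% in hepatocyte-like cells of sets 1, 2 and 4. In the Alb-led cluster it was 8.197%, 40.5% and 28.9% in sets 1, 2 and 4, against 26.2%, 26.9% and 33.8% in the Fabp1-led cluster. It was lower in the Alb-led cluster in sets 1 and 4 and higher in set 2.

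**Figure D4:**
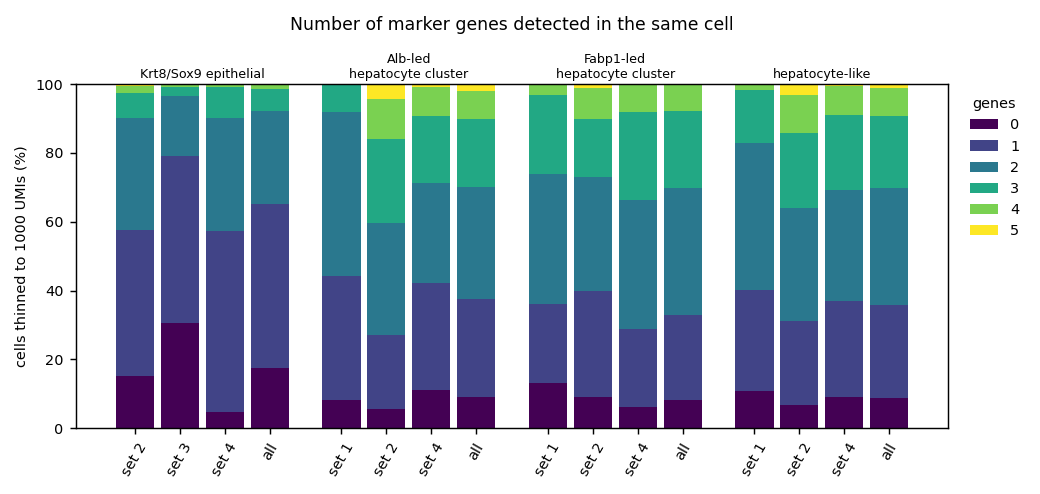
Stacked bars give the percentage of cells, thinned to 1000 UMIs, with 0 to 5 of the 10 genes detected, for Krt8/Sox9 epithelial cells, both hepatocyte clusters and all hepatocyte-like cells, by barcode set and over all sets. At least 3 genes were seen in 7.73% of Krt8/Sox9 epithelial cells and in 30.1% of hepatocyte-like cells.

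Pairs of genes in the same hepatocyte-like cell were counted for the 6 genes seen in at least 5% of cells. Of 15 pairs, 0 were seen together at 1.5 times or more the product of their single shares in every set, and 0 at 1/1.5 or less in every set. Tff3 and Akr1c18 were together in 42, 52 and 51 cells of sets 1, 2 and 4, where the product gave 35.7, 44.4 and 46.2 cells. Within the Alb-led cluster this pair was at 1.11, 1.12 and 1.28 times the product, and within the Fabp1-led cluster at 1.17, 1.18 and 0.937 times. Afp and Tff3 were at 1.03 to 1.19 times over all hepatocyte-like cells, but at 0.567 times in set 1 of the Alb-led cluster and 0.997 times in set 2 of the Fabp1-led cluster. Afp and Gpc3 were together in 0, 33 and 12 cells, where the product gave 1.64, 29.1 and 20.7, so the pair lay on different sides in different sets. Gpc3 and Scd2, both higher in the Alb-led cluster, were at 3.39, 0.687 and 1.57 times the product from 2, 4 and 16 cells, and within the Alb-led cluster at 0.586 to 1.94 times.

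**Figure D5:**
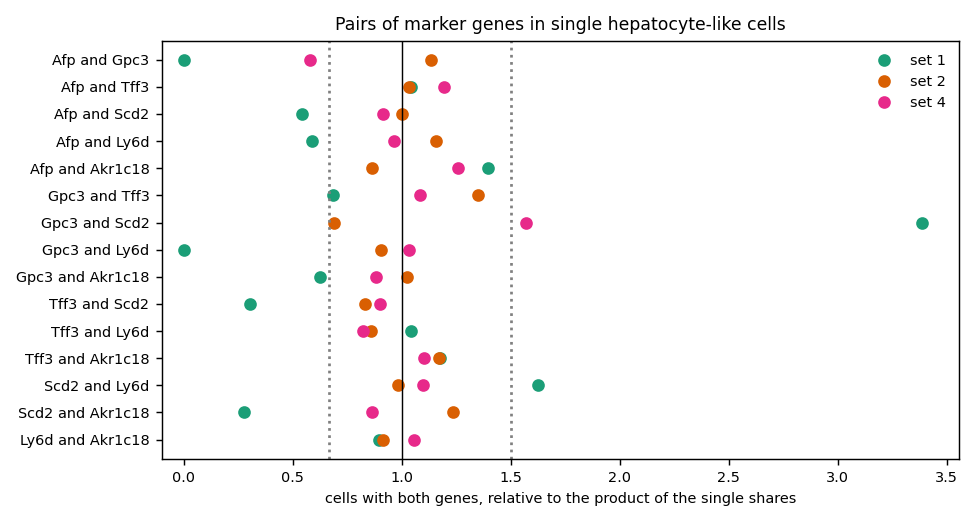
For each of 15 gene pairs, the number of hepatocyte-like cells with both genes relative to the product of the single shares, with 1 point for each of barcode sets 1, 2 and 4. The solid line is 1 and the dotted lines are 1.5 and 1/1.5, and no pair has all 3 points beyond the same dotted line.

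The genes with the most similar pattern were taken over 57 class-by-set levels, which share libraries and may share free RNA, so Pearson r is a description. Nearest to Afp were Pzp (0.93), Apob (0.93) and 1300017J02Rik (0.93), and nearest to Gpc3 were Rarres2 (0.82), C4b (0.82) and Spp2 (0.81). H19 had Colgalt2 (0.87), BC051077 (0.87) and Phkg1 (0.85), from its 44 UMIs. Tff3 had Serpina1e (0.95), Serpina3k (0.92) and Apoc3 (0.91), and Akr1c18 had Hpx (0.93), A2ml1 (0.92) and Ahsg (0.92). Scd2 had 4931406C07Rik (0.76), Aldh6a1 (0.74) and Prpf40b (0.74), Ly6d had Pir (0.68), Chchd10 (0.65) and Pafah1b3 (0.64), and Golm1 had Sptan1 (0.70), Atn1 (0.69) and Cast (0.68).

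Across 769 hepatocyte-like cells of both clusters the median r over sets was lower for each of the 6 genes examined. The 3 highest of 2113 genes compared are named for each. Afp came with Cyb5a (0.30), Gstm2 (0.29) and Pomp (0.28), and Akr1c18 with Cyb5a (0.36), Aldh2 (0.31) and Fabp1 (0.29). Tff3 came with Serpina1e (0.37), Ttr (0.34) and Apoc1 (0.32). Gpc3 came with Fga (0.28), Alb (0.26) and Kng1 (0.26), Scd2 with Cp (0.37), P4hb (0.29) and Hp (0.29), and Ly6d with Clu (0.27), Tm4sf4 (0.24) and Malat1 (0.21). In the lowest set r was -0.10 for Afp with Pomp, -0.01 for Afp with Gstm2 and -0.03 for Ly6d with Tm4sf4. These likenesses thus did not hold in every set. Some partners differed between the clusters, as Gpc3, Scd2 and Akr1c18 did. Alb was 69037 CPM in the Alb-led cluster, against 14737 CPM in the Fabp1-led cluster. In the same order Cp was 1864 against 153.5 CPM and Fabp1 1428 against 9996 CPM. Ttr differed less, at 11572 against 8315 CPM. Whether the likenesses hold within a cluster was not tested.

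Families and partners of the genes were read in Krt8/Sox9 epithelial cells against hepatocyte-like cells. Over all genes tested, 7.87% were at least 2-fold higher in every set and 3.89% at least 2-fold lower. The lists in this and the following paragraphs are short, so their counts are given as values and no list is called different from those shares. In the albumin family 2 of 3 genes were at least 2-fold lower in every set, Alb at -2.38 and Afm at 42.8 CPM against 144.4 CPM, while Gc, the vitamin D binding protein, was at 0.14. Of 12 lipogenic partners of Scd2, 10 passed the filter, 3 were at least 2-fold lower and 0 higher, with the desaturase Scd1 at -2.67, Elovl5 at -1.28, Fads1 at -1.34 and Acly at -0.71. Of 7 Akr1c genes 6 passed, 2 were at least 2-fold lower and 0 higher, with Akr1c6 at -3.95, Akr1c13 at 0.18, Akr1c20 at -1.02 and Akr1c19 at 0.03. Of 7 Ly6 genes 3 passed, 1 was at least 2-fold lower (Ly6c2, -1.52) and 0 higher. Neither of the other trefoil genes passed.

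Of 13 regulators of Afp, H19 and Gpc3 in liver, 11 passed, 2 were at least 2-fold higher in Krt8/Sox9 epithelial cells and 0 lower. By any amount, 9 of the 11 were higher in every set, against 47.2% of all genes tested, and 0 were lower, against 17.3%. Zbtb20, a repressor of Afp in adult mouse liver, was at a median of 457.8 CPM in Krt8/Sox9 epithelial cells, against 102.2 CPM in hepatocyte-like cells, a ratio of 2.34 (sets from 1.96 to 2.71). The liver factor Hnf4a was at 0.04, Foxa3 at -0.62 and Cebpa at 0.38. Of 10 IGF axis genes 9 passed, 4 were at least 2-fold higher and 2 lower, with Igfbp1 at 1.68, Igfbp3 at 4.01, Igfbp4 at 0.15 and Igfbp2 at -2.28. Of 14 other imprinted genes 4 passed, 2 were at least 2-fold higher and 0 lower, with Meg3 at 1.86, Igf2r at 1.40, Gnas at 0.14 and Slc38a4 at -0.11.

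Of 6 Notch and Dlk1 partners 4 passed, 2 were at least 2-fold higher in Krt8/Sox9 epithelial cells and 0 lower, with the Notch target Hes1 at 2.31 and the receptor Notch1 at 1.87. Of 6 glypicans and syndecans 4 passed, 2 were at least 2-fold higher and 0 lower, Sdc4 at 1.72 and Sdc1 at 1.34. Of 22 other oncofetal and progenitor genes 12 passed, 3 were at least 2-fold higher and 1 lower, and Ly6e was at 0.12, Tspan8 at 0.83, Spink1 at -1.05 and Cpe at 0.93. Of 7 Golgi genes 6 passed, 1 was at least 2-fold higher (Golgb1, 1.38) and 0 lower.

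In the Alb-led against the Fabp1-led cluster, 8.47% of all genes tested were at least 2-fold higher in every set and 4.29% at least 2-fold lower. By any amount, 32.4% were higher in every set and 31.6% lower. All 3 albumin family genes were at least 2-fold higher in every set, with Alb at 2.24, Afm at 2.14 and Gc at 1.68. Of the lipogenic partners 9 passed, 3 were at least 2-fold higher and 0 lower, with Scd1 at 2.35, Elovl5 at 1.84, Fads1 at 1.83 and Acly at 0.55. Of the Akr1c genes 6 passed and 4 were lower in every set, 1 of them at least 2-fold, Akr1c6 at -2.25. Of the glypicans and syndecans 4 passed and all 4 were higher in every set, 2 of them at least 2-fold, Sdc1 at 2.55 and Sdc4 at 1.90.

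Of the imprinted genes 4 passed and 3 were at least 2-fold higher in the Alb-led cluster, Meg3 at 2.97, Igf2r at 1.78 and Slc38a4 at 1.47, while Gnas was at -0.46. Of the IGF axis genes 8 passed, 4 were at least 2-fold higher and 0 lower, with Igfbp1 at 3.47, Igfbp2 at 1.68 and Igfbp4 at 0.96. Of the oncofetal and progenitor genes 9 passed, 3 were at least 2-fold higher and 0 lower, Cpe at 2.83, Tspan8 at 1.94 and Ly6e at 1.02, while Spink1 was at 0.22. Of the regulators 8 passed and 0 were at least 2-fold higher or lower in every set, with Zbtb20 at 1.62 (sets from 0.26 to 2.11). Of the Notch and Dlk1 partners 3 passed and 2 were at least 2-fold higher, Hes1 at 1.94 and Notch2 at 1.69. Of the Ly6 genes 3 passed and 1 was at least 2-fold higher (Ly6e), and of the Golgi genes 4 passed and 1 was (Tgoln1, 1.85).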

How the data were processed

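Digested mouse liver cells of 4 samples were captured on a 10x Chromium system with the 3' v2 kit, per the labels' protocols. The submitters' processing notes name CASAVA 1.8, Cell Ranger, Seurat and mm10 but no filter. Each value the authors deposited is a natural log (ln) of 1 plus UMIs per 10000 UMIs of its cell. Turned back, 100% of values were whole UMIs within 0.001, and these were used. The fewest genes in a cell were 201.

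The planned genotype test was not run, since cells could not be tied to samples. Cells were clustered with scanpy 1.11.5 and leidenalg 0.10.2 (2000 variable genes without the 10 genes, 30 components, 15 neighbours, resolution 1.0, seed 1), which gave 27 clusters named from marker lists. No doublet caller was run and no cell was removed. A level is the mean over cells of CPM in a class and set. A ratio is the log2 of levels plus 10 CPM, taken within each set that has 20 cells or more of each class, for genes at 20 CPM or more in 1 class by the median over sets, and understates changes of low genes. Medians and ranges are over sets. The step was tested on simulated counts. Intervals are Clopper-Pearson (95%), and a count of 0 is given a limit of 3 UMIs. Positions are from GENCODE and promoters from RefSeq, which matched 6 of the 10 genes, and motifs were searched on both strands. The 10 genes and the lists were chosen with earlier results of these data known. The text names all 10 genes, up to 4 genes of highest level per list and the 3 most similar genes. Alternatives were UMI sums, a pseudocount of 1 CPM, a filter of 100 CPM or none, 500 genes per cell, resolutions 0.5 and 2.0, the 10 genes kept in clustering, centring, other thinned depths and each set left out. Comparisons with 1 hepatocyte cluster, cells without B lineage markers, unshared barcodes and thinned cells for ratios were chosen after seeing the data. Python 3.11.15, numpy 2.4.6 and scipy 1.17.1 were used.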

Additional observations from a re-analysis of the deposited data

How the results depend on the processing

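In Krt8/Sox9 epithelial against hepatocyte-like cells, the number of the 10 genes at least 2-fold higher in every set was 0. It became 1 (Ly6d) with UMI sums and with barcodes found in 1 set, and also without set 3, where Ly6d was below 2-fold in the main run. The number was 1 (Ly6d) too with 500 genes per cell, against the Alb-led cluster only and with cells thinned to 1000 UMIs. Set 3 had too few cells to be used in those. Against the Fabp1-led cluster only the number was 1 (Golm1, at 1.90), and that cluster had 10, 0 and 1 Golm1 UMIs in sets 2 to 4. The range without each set was 0 to 1. The number at least 2-fold lower was 4 and became 2 against the Fabp1-led cluster only. There the median ratio was -0.18 for Gpc3 and 0.34 for Scd2, which was higher in sets 2 and 4 and lower in set 3. Afp was no longer at least 2-fold lower in every set with UMI sums (-1.37) and against the Alb-led cluster only (-1.01), nor was Scd2 with thinned cells (-1.01). Between the hepatocyte clusters the number at least 2-fold lower was 0 and ranged from 0 to 2 without each set, with Afp at -2.06 and Akr1c18 at -1.49 without set 2, and Golm1 was at least 2-fold higher, at 1.70, without set 1. That Golm1 value rests on 10 and 1 UMIs in the Fabp1-led cluster of sets 2 and 4. The share of hepatocyte-like cells with at least 1 of the genes was 76.2% at 500 UMIs and 97.4% at 2000 UMIs. The number of pairs at 1.5 times the product in every set ranged from 0 to 1 without each set, and was 1 without set 2. The cause of these changes was not tested. No paired analysis was possible because cells could not be tied to samples, and the planned genotype alternatives were not run for that reason. Few cells limit set 1, with 19 Krt8/Sox9 epithelial cells, and set 3, with 50 hepatocyte-like cells. The median depth was 2648, 906, 1037 and 1859 UMIs per cell in sets 1 to 4.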
